A study of Homo sapiens with 9 samples.

Results

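The genes of cholesterol and fatty acid synthesis were followed in CAL-27 cells after knockdown of LEF1 or KDM4A. The set holds 32 genes of the 33216 in each library's table, taken by gene symbol: 7 of the mevalonate steps, 11 of the squalene and sterol steps, 5 of sterol transport and SREBP control, and 9 of fatty acid and glycerolipid synthesis. CAL-27 is an established line of human tongue squamous cell carcinoma. The cells received siRNA against LEF1 (siLEF1) or siRNA against KDM4A (siKDM4A), or served as controls (Control). RNA was taken after 48 h, with 3 libraries in each group and 9 in all. Whether the Control cells were transfected, and with what, is not given in the labels. Without that, a change shared by both knockdowns cannot be told apart from one that came with transfection. All 3 groups are of 1 cell line and 1 time point. LEF1 is a DNA-binding partner of β-catenin in the Wnt pathway, and KDM4A removes methyl groups from lysines of histone H3.

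Cells make cholesterol from acetyl-CoA through mevalonate, isoprenoid pyrophosphates, squalene and lanosterol, and make fatty acids from the same acetyl-CoA through malonyl-CoA. Most of these enzymes are transcribed under the sterol regulatory element-binding proteins SREBP1 and SREBP2, which are held in the endoplasmic reticulum by SCAP and INSIG proteins while sterols are plentiful and are carried to the Golgi and cut to their active form when sterols run low. SREBPs bind promoters together with NF-Y and SP1. INSIG1 is itself a target of SREBP, so its transcript is widely read as a sensor of the pathway.

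Expression was measured as FPKM, fragments scaled to the length of the gene and to the size of the library, so levels can be set side by side between genes. Libraries held 15263188 to 17126665 reads on genes. The siRNA targets fell in their own groups. LEF1 was at 0.997 to 1.27 FPKM in the Control libraries and at 0.230 to 0.270 FPKM in the siLEF1 libraries (log2 fold change -1.84, adjusted p = 0.00057). KDM4A was at 16.5 to 16.6 FPKM in Control and at 2.76 to 2.78 FPKM in siKDM4A (log2 fold change -2.53, adjusted p = 6.8e-07), with 40.2% of its exon bases shared with AL451062.3 on the same strand. KDM4A was also lower in siLEF1, at 13.8 to 14.3 FPKM (-0.23, adjusted p = 0.0011), and LEF1 in siKDM4A was at 0.806 to 0.937 FPKM (-0.35, adjusted p = 0.13). Of 8 squamous epithelial markers, 6 fell past 1.5-fold in siKDM4A, and the 8 together summed to 503 to 520 FPKM there, against 1230 to 1276 FPKM in Control and 1370 to 1386 FPKM in siLEF1. The other two, the general epithelial markers EPCAM and CDH1, rose in siKDM4A, EPCAM from 73.5 ± 1.42 to 111 ± 2.92 FPKM (log2 fold change 0.60, adjusted p = 2.4e-05) and CDH1 from 59.4 ± 1.25 to 65.1 ± 1.18 FPKM (0.13, adjusted p = 0.0096). The largest of the 6 falls were in keratin genes, with KRT14 at a log2 fold change of -4.95 (0.591 to 1.07 FPKM in siKDM4A) and KRT5 at -3.19. The part of this shift in the results below was not tested. In a bulk library, fewer cells of a kind and less RNA per cell cannot be told apart. The 7 markers of other cells summed to 2.59 to 4.02 FPKM in every library, with the leukocyte marker PTPRC at 0 in all Control and siKDM4A libraries.

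Each knockdown was compared with Control with limma on log2(FPKM + 0.1), and p-values were adjusted over all genes tested. A gene is called raised or lowered here where the adjusted p is below 0.05, and past 1.5-fold where the fold change also exceeds 1.5. The 3 libraries of a group are named as independent samples by the study, and the p-values measure the spread between these samples. All 32 genes passed the filter of 0.1 FPKM on average in every comparison, and each had a mean above 1 FPKM.

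In the siLEF1 group, 15 of the 32 genes were raised (46.9%) and 2 were lowered (6.25%), while 15 did not pass the test. Over all 21831 genes tested, 15.7% were raised and 16.9% lowered, and among the 12661 tested genes averaging 1 FPKM or more the shares were 23.3% and 26.9%. Past 1.5-fold, 2 genes were raised, INSIG1 and MVD, and 1 was lowered, TM7SF2, against 6.31% raised and 5.31% lowered over all genes tested. Among those averaging 1 FPKM or more these shares were 7.31% and 7.04%. The 2 raised make 6.25% of the set, close to the background. The median log2 fold change of the set was 0.17, against -0.0069 over all genes tested and -0.028 among those averaging 1 FPKM or more.

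In the siKDM4A group, 19 genes were raised (59.4%), 4 were lowered (12.5%) and 9 did not pass. Over all 21253 genes tested, 14.7% were raised and 18.3% lowered, and among the 12487 averaging 1 FPKM or more the shares were 23.2% and 27.1%. Past 1.5-fold, 7 genes were raised (21.9%), against 4.23% of all genes tested: HMGCS1, MVD, FDPS, SQLE, CYP51A1, DHCR7 and INSIG1, all of them sterol synthesis genes or the SREBP regulator. The 2 lowered past 1.5-fold were TM7SF2 and FADS2 (6.25%), against 7.8% of all genes tested. Among those averaging 1 FPKM or more, 5.41% were raised and 9.22% lowered past 1.5-fold. The median log2 fold change of the set was 0.20, against -0.054 over all genes tested and -0.030 among those averaging 1 FPKM or more.

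**Figure D1:**
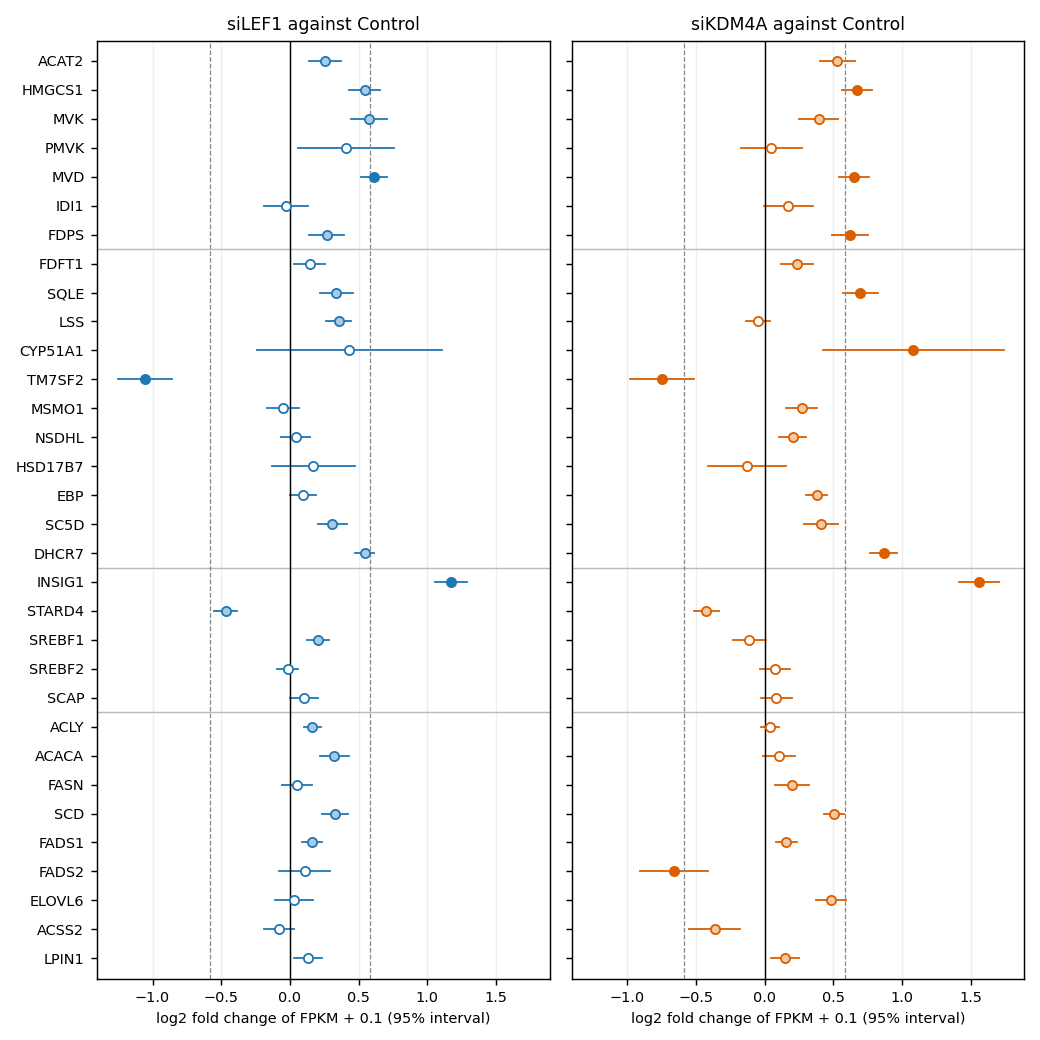
Log2 fold change of FPKM + 0.1 for the 32 genes in siLEF1 (left, blue) and siKDM4A (right, orange) against the same 3 Control libraries, with 95% intervals from limma. Dark points passed the adjusted p and 1.5-fold (dashed lines), pale points passed the adjusted p alone and open points passed neither. INSIG1 lies farthest to the right in both panels, at 1.17 and 1.56, and TM7SF2 farthest to the left, at -1.05 and -0.75.

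The 7 genes of the mevalonate steps, which turn acetyl-CoA into farnesyl pyrophosphate, included 5 raised in each knockdown and none lowered. Their median log2 fold change was 0.41 in siLEF1 and 0.53 in siKDM4A. The 5 raised make 71.4%, against 23.3% in siLEF1 and 23.2% in siKDM4A among tested genes averaging 1 FPKM or more. The shares lowered among such genes were 26.9% and 27.1%. The 2 comparisons share the Control libraries, so they are given side by side and not as independent counts.

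HMGCS1, the cytosolic HMG-CoA synthase (ENSG00000112972, chr5:43289395-43313512, minus strand, GRCh38), was at 23.1, 24.4 and 21.7 FPKM in the Control libraries, at 34.7, 32.9 and 33.3 FPKM in siLEF1 and at 36.3, 37.7 and 36.3 FPKM in siKDM4A. No knockdown library overlapped Control. Against Control the log2 change was 0.54 in siLEF1 (95% interval 0.43 to 0.66, adjusted p = 0.00022) and 0.67 in siKDM4A (0.56 to 0.78, adjusted p = 8.9e-05). On the opposite strand, AC114947.2 covers 15% of its exon bases. Without Control replicate 2 the siLEF1 value was 0.59, just past 1.5-fold. MVD, mevalonate diphosphate decarboxylase (ENSG00000167508, chr16:88651935-88663161, minus strand), was at 7.58, 7.64 and 7.40 FPKM in Control, at 11.2, 11.8 and 11.8 FPKM in siLEF1 and at 12.4, 11.3 and 12 FPKM in siKDM4A. Both knockdown groups lay wholly above Control and overlapped each other. This gave a log2 fold change of 0.61 in siLEF1 (0.52 to 0.70, adjusted p = 6.5e-05) and 0.65 in siKDM4A (0.54 to 0.76, adjusted p = 0.0001). With a pseudocount of 1 in place of 0.1 the siLEF1 value was 0.56, under 1.5-fold.

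The stretches before the starts of HMGCS1 and MVD are shown because both genes were raised in both knockdowns and both hold the CCAAT box that NF-Y binds, in capitals as CCAAT or its reverse complement ATTGG. Each runs 5′ to 3′ on the strand of the gene, from 250 bases before a RefSeq start to the first base that a GENCODE exon of the gene covers. Where a gene has several RefSeq starts, the one with most boxes was taken, here and below. The positions in GRCh38.p14 are chr5:43313513-43313662 for HMGCS1 and chr16:88663162-88663341 for MVD, both on the minus strand.
HMGCS1: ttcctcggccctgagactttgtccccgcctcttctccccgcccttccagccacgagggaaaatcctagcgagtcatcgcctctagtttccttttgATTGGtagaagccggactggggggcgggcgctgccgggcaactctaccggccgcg
MVD: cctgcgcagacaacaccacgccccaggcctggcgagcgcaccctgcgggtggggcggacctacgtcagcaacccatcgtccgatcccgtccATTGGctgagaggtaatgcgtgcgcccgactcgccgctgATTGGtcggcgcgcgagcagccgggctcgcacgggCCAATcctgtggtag
The MVD stretch holds 3 boxes, starting 159, 120 and 85 bases before the start, and the HMGCS1 stretch holds 1, starting 155 bases before it. A second HMGCS1 box starts 100 bases before the same start, beyond the end of the stretch shown. HMGCS1 has 2 RefSeq starts, and no box was found in the 250 bases before the other.

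FDPS, farnesyl pyrophosphate synthase (ENSG00000160752, chr1:155308748-155320666, plus strand), was at 11.5, 11.6 and 10.3 FPKM in Control, at 13.0, 13.6 and 13.7 FPKM in siLEF1 and at 17.3, 16.6 and 17.7 FPKM in siKDM4A. The 3 groups did not overlap, and siKDM4A was the highest. Relative to Control, limma put the log2 change at 0.27 in siLEF1 (adjusted p = 0.009) and 0.62 in siKDM4A (0.49 to 0.75, adjusted p = 0.00024). Without the library Control replicate 3 the siKDM4A value was 0.57, under 1.5-fold, and with a pseudocount of 1 it was 0.58. FDPS has 8 named pseudogenes, and RUSC1-AS1 covers 18.6% of its exon bases on the opposite strand, so its level is uncertain to that extent. MVK, mevalonate kinase, was at 5.2, 4.77 and 4.88 FPKM in Control, at 7.21, 7.34 and 7.72 FPKM in siLEF1 and at 6.30, 6.47 and 6.87 FPKM in siKDM4A. All knockdown libraries were above Control, with siLEF1 the highest of the 3 groups. Against Control the log2 change was 0.57 in siLEF1 (adjusted p = 0.00033), just inside 1.5-fold, and it was 0.60 without the library siLEF1 replicate 1 and 0.61 without Control replicate 1. In siKDM4A it was 0.40 (adjusted p = 0.0025).

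ACAT2, the cytosolic thiolase that makes acetoacetyl-CoA, was raised by 0.25 in siLEF1 (adjusted p = 0.0077) and by 0.53 in siKDM4A (adjusted p = 0.00043), both on the log2 scale, and neither group overlapped Control. More than any other gene of these steps it shares its exons with the opposite strand, at 52.3% of exon bases, where SOD2, SOD2-OT1 and TCP1 lie. PMVK, phosphomevalonate kinase, and IDI1, isopentenyl-diphosphate isomerase, did not pass in either knockdown. PMVK had the widest spread of the group, at 14.5, 15.0 and 10.8 FPKM in siLEF1, and its log2 fold change there was 0.41 (0.06 to 0.76, adjusted p = 0.079). IDI1 differed from Control by -0.03 in siLEF1 (-0.19 to 0.13) and by 0.17 in siKDM4A (adjusted p = 0.12), with IDI2-AS1 over 14.8% of its exon bases on the opposite strand.

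**Figure D2:**
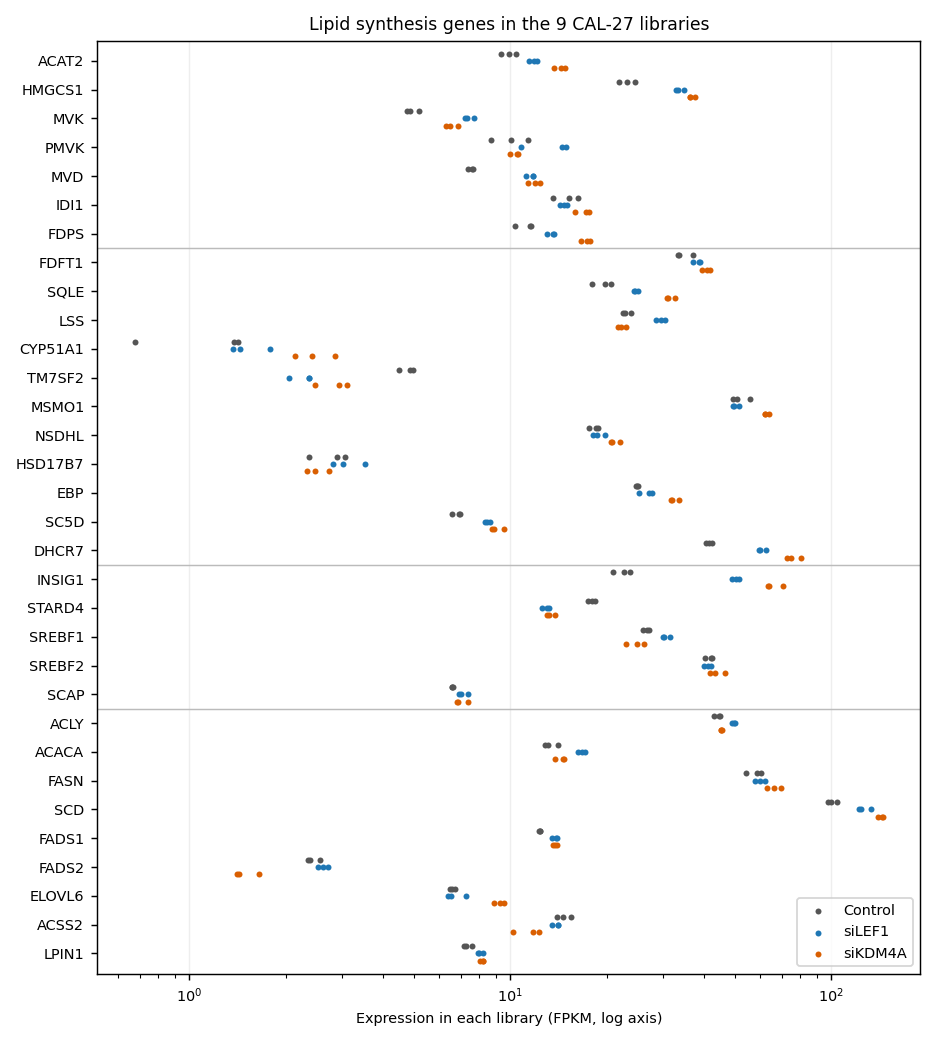
FPKM on a log axis for each of the 32 genes in the 3 Control (grey), 3 siLEF1 (blue) and 3 siKDM4A (orange) libraries, 1 point a library, with lines between the mevalonate, sterol, SREBP control and fatty acid groups. The INSIG1 libraries form 3 separate clusters between 20.9 and 70.7 FPKM, the TM7SF2 knockdown libraries lie below Control, and CYP51A1 has 1 Control library, at 0.675 FPKM, apart from the other two.

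The 11 genes of the squalene and sterol steps, which join farnesyl units into squalene, close the ring and trim lanosterol to cholesterol, were counted in the same way. In siLEF1, 4 were raised (36.4%), 1 was lowered (9.09%) and 6 did not pass, with a median log2 fold change of 0.17. In siKDM4A, 8 were raised (72.7%), 1 was lowered (9.09%) and 2 did not pass, with a median of 0.27. Among tested genes averaging 1 FPKM or more, 23.3% were raised and 26.9% lowered in siLEF1, and 23.2% and 27.1% in siKDM4A.

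SQLE, squalene epoxidase, which adds oxygen to squalene in a rate-limiting step (ENSG00000104549), was at 20.6, 19.7 and 18 FPKM in Control, at 25.0, 24.2 and 24.5 FPKM in siLEF1 and at 30.8, 31.1 and 32.6 FPKM in siKDM4A. The 3 groups did not overlap. Its log2 fold change was 0.34 in siLEF1 (0.22 to 0.46, adjusted p = 0.0025) and 0.70 in siKDM4A (0.57 to 0.82, adjusted p = 0.00014). DHCR7, 7-dehydrocholesterol reductase, which makes cholesterol in the last step of its route (ENSG00000172893, chr11:71428193-71452868, minus strand), was at 42.5, 40.8 and 41.7 FPKM in Control, at 59.5, 59.97 and 62.7 FPKM in siLEF1 and at 80.6, 72.9 and 74.7 FPKM in siKDM4A. Again the groups were separate, in the order Control, siLEF1, siKDM4A. This gave a log2 fold change of 0.54 in siLEF1 (0.47 to 0.61, adjusted p = 3.5e-05), inside 1.5-fold, and 0.87 in siKDM4A (0.77 to 0.97, adjusted p = 2.4e-05).

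TM7SF2, one of the sterol C14 reductases (ENSG00000149809, chr11:65111845-65116384, plus strand), went the other way. It was at 4.98, 4.52 and 4.88 FPKM in Control, at 2.37, 2.36 and 2.05 FPKM in siLEF1 and at 3.09, 2.46 and 2.93 FPKM in siKDM4A. All 6 knockdown libraries lay below all Control libraries. Relative to Control, limma put the log2 change at -1.05 in siLEF1 (-1.25 to -0.85, adjusted p = 0.00016) and -0.75 in siKDM4A (-0.98 to -0.51, adjusted p = 0.0014). It rested on 119 to 264 reads a library.

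The stretches before DHCR7 and TM7SF2, chosen because these 2 sterol reductases moved in opposite directions, are shown in the same way, with CCAAT and ATTGG in capitals. They lie in GRCh38.p14 at chr11:71448436-71448643 on the minus strand and chr11:65111622-65111844 on the plus strand. The DHCR7 stretch belongs to a RefSeq start inside the gene as GENCODE draws it.
DHCR7: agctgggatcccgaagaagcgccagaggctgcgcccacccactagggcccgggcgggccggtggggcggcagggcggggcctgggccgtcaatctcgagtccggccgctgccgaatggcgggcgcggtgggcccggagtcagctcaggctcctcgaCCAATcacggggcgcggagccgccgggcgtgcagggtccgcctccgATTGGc
TM7SF2: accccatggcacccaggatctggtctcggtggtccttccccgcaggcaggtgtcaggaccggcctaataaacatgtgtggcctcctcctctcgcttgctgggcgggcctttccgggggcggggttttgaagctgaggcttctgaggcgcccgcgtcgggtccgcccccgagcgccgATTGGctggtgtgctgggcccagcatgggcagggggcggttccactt
DHCR7 holds 2 boxes, starting 94 and 48 bases before the start, and TM7SF2 holds 1, starting 74 bases before it, so the box is present before genes of either direction.

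CYP51A1, lanosterol 14α-demethylase (ENSG00000001630, chr7:92112151-92134803, minus strand), was the least abundant of the 32 genes in Control. It was at 1.42, 1.38 and 0.675 FPKM in Control, at 1.44, 1.79 and 1.37 FPKM in siLEF1 and at 2.14, 2.41 and 2.84 FPKM in siKDM4A. The siLEF1 libraries overlapped Control and the siKDM4A libraries did not. Its log2 fold change in siKDM4A was 1.08 (0.42 to 1.74, adjusted p = 0.023), a fold of 2.12. That call was lost without siKDM4A replicate 2 (adjusted p = 0.064), without siKDM4A replicate 3 (0.082) and with eBayes without trend (0.054). It rested on 42 to 198 reads a library. On the same strand 79.4% of its exon bases are shared with AC000120.2 and AC000120.3, and it has 3 named pseudogenes, so its level is uncertain.

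LSS, lanosterol synthase, which closes the sterol rings, was raised in siLEF1 and not in siKDM4A. It was at 22.7, 22.4 and 23.8 FPKM in Control, at 28.4, 30.4 and 29.4 FPKM in siLEF1 and at 22.9, 22.2 and 21.6 FPKM in siKDM4A. Against Control the log2 change was 0.35 in siLEF1 (adjusted p = 0.00055) and -0.05 in siKDM4A (-0.13 to 0.04, adjusted p = 0.41). MSMO1, methylsterol monooxygenase, had the reverse pattern and was at 50.9, 55.9 and 49.4 FPKM in Control, at 49.4, 49.6 and 51.6 FPKM in siLEF1 and at 62.0, 63.9 and 62.1 FPKM in siKDM4A. Its siKDM4A libraries were above all the others. This gave a log2 fold change of -0.05 in siLEF1 (-0.17 to 0.07) and 0.27 in siKDM4A (adjusted p = 0.0052).

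The remaining sterol genes moved by less than 1.5-fold. SC5D, the sterol C5 desaturase, was raised in both knockdowns, by 0.31 and 0.41 on the log2 scale (adjusted p = 0.0019 and 0.0012). EBP, the sterol isomerase that binds emopamil, NSDHL, the sterol dehydrogenase of C4 demethylation, and FDFT1, squalene synthase, passed in siKDM4A and not in siLEF1, at log2 fold changes of 0.38, 0.20 and 0.24 in siKDM4A against 0.09, 0.04 and 0.14 in siLEF1. HSD17B7, the 3-ketosteroid reductase of the route, has 2 named pseudogenes and passed in neither, at 0.17 (-0.13 to 0.48) and -0.13 (-0.41 to 0.15).

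Among the 5 genes of sterol transport and SREBP control, INSIG1 had the largest change of the 32 in each knockdown. INSIG1, which retains the SCAP and SREBP complex in the endoplasmic reticulum (ENSG00000186480, chr7:155297776-155310235, plus strand), was at 22.5, 23.6 and 20.9 FPKM in the Control libraries, at 49.1, 51.5 and 50.5 FPKM in siLEF1 and at 70.7, 63.4 and 63.7 FPKM in siKDM4A. No libraries of different groups overlapped. Relative to Control, limma put the log2 change at 1.17 in siLEF1 (1.05 to 1.29, adjusted p = 1.1e-05), a fold of 2.25, and 1.56 in siKDM4A (1.41 to 1.7, adjusted p = 1.3e-05), a fold of 2.94.

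STARD4, a cytosolic carrier of cholesterol and likewise a known SREBP2 target (ENSG00000164211, chr5:111496033-111512590, minus strand), was at 17.9, 17.4 and 18.3 FPKM in Control, at 13.0, 12.6 and 13.2 FPKM in siLEF1 and at 13.2, 13.0 and 13.7 FPKM in siKDM4A. Both knockdown groups lay below Control and overlapped each other. Against Control the log2 change was -0.47 in siLEF1 (-0.55 to -0.38, adjusted p = 0.00013) and -0.42 in siKDM4A (-0.51 to -0.33, adjusted p = 0.00025), short of 1.5-fold in both.

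The transcripts of the SREBPs and SCAP themselves moved little. SREBF2, which encodes SREBP2, the main driver of sterol genes, was at 42.5, 40.5 and 42.1 FPKM in Control, at 40.0, 41.2 and 42.3 FPKM in siLEF1 and at 46.8, 41.8 and 43.5 FPKM in siKDM4A. The 3 groups overlapped, and its log2 fold change was -0.02 in siLEF1 (-0.09 to 0.06) and 0.08 in siKDM4A (-0.03 to 0.19). SREBF1, which encodes the SREBP1 forms that drive fatty acid genes, was at 26.6, 25.8 and 27.0 FPKM in Control, at 30.1, 29.9 and 31.5 FPKM in siLEF1 and at 26, 22.9 and 24.8 FPKM in siKDM4A. It was raised in siLEF1 by 0.20 on the log2 scale (adjusted p = 0.0033), and in siKDM4A the value was -0.11 (-0.23 to 0.01, adjusted p = 0.15). SCAP, the sterol-sensing escort of SREBP, did not pass in either, at 0.10 (adjusted p = 0.13) and 0.09 (adjusted p = 0.23). The active, cut form of SREBP is a protein and was not measured.

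The stretches before INSIG1 and STARD4 are shown as the genes of this group that moved in opposite directions, with CCAAT and ATTGG in capitals as before. They lie in GRCh38.p14 at chr7:155297628-155297775 on the plus strand and chr5:111512591-111512785 on the minus strand. A shorter stretch of SREBF2 lies at chr22:41832952-41833000 on the plus strand. It has in capitals the match to the sterol regulatory element TCACNCCAC that starts 133 bases before its start. That is the single such match among the 28 genes of the set whose promoters were read.
INSIG1: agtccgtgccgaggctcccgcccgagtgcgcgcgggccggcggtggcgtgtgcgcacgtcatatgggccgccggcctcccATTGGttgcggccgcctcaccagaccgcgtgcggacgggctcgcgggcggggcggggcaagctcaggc
STARD4: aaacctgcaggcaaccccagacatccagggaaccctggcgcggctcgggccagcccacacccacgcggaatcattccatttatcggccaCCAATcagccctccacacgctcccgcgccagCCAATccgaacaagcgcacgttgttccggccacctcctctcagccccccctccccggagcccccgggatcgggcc
SREBF2: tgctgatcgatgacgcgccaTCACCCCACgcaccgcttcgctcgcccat
INSIG1 holds 1 box, starting 170 bases before the start, and STARD4 holds 2, starting 161 and 130 bases before it.

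The 9 genes of fatty acid and glycerolipid synthesis included 4 raised (44.4%) and none lowered in siLEF1, with a median log2 fold change of 0.13. In siKDM4A they included 5 raised (55.6%) and 2 lowered (22.2%), with a median of 0.15. The shares among tested genes averaging 1 FPKM or more were 23.3% raised and 26.9% lowered in siLEF1, and 23.2% and 27.1% in siKDM4A. None of the 9 was raised past 1.5-fold in either knockdown, against 7.31% of such genes in siLEF1 and 5.41% in siKDM4A. SCD, the stearoyl-CoA desaturase that makes oleate and the most abundant of the 32 genes in Control, was at 104.0, 99.8 and 97.8 FPKM in Control, at 122, 124 and 133 FPKM in siLEF1 and at 144, 139.8 and 145 FPKM in siKDM4A. The 3 groups did not overlap. This gave a log2 fold change of 0.33 in siLEF1 (0.23 to 0.42, adjusted p = 0.00097) and 0.51 in siKDM4A (0.43 to 0.58, adjusted p = 5.2e-05).

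FADS2, the Δ6 desaturase of polyunsaturated fatty acids (ENSG00000134824, chr11:61792980-61867354, plus strand), was at 2.34, 2.55 and 2.37 FPKM in Control, at 2.70, 2.52 and 2.61 FPKM in siLEF1 and at 1.65, 1.43 and 1.41 FPKM in siKDM4A. The siKDM4A libraries lay below all others and siLEF1 overlapped Control. Relative to Control, limma put the log2 change at -0.66 in siKDM4A (-0.91 to -0.41, adjusted p = 0.003), or -0.45 with a pseudocount of 1, and 0.11 in siLEF1 (-0.08 to 0.29, adjusted p = 0.35). FADS1, the neighbouring Δ5 desaturase on the other strand, was raised by 0.16 on the log2 scale in each knockdown (adjusted p = 0.0076 in siLEF1 and 0.0091 in siKDM4A). ELOVL6, which lengthens palmitate to stearate, was at 6.71, 6.57 and 6.50 FPKM in Control, at 7.26, 6.54 and 6.41 FPKM in siLEF1 and at 8.88, 9.30 and 9.59 FPKM in siKDM4A. The siKDM4A libraries were above all others, with a log2 fold change of 0.48 (0.37 to 0.59, adjusted p = 0.00035), against 0.03 in siLEF1 (-0.11 to 0.17).

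ACSS2, which makes acetyl-CoA from acetate, was at 15.4, 14.6 and 14.0 FPKM in Control, at 14.1, 13.5 and 14.1 FPKM in siLEF1 and at 12.3, 10.2 and 11.8 FPKM in siKDM4A. It was lowered in siKDM4A (log2 fold change -0.36, adjusted p = 0.011), whose libraries lay below all the others. ACLY, which makes acetyl-CoA from citrate, and ACACA, the acetyl-CoA carboxylase that makes malonyl-CoA, were raised in siLEF1 at 0.16 and 0.32 (adjusted p = 0.0036 and 0.0016) and did not pass in siKDM4A, at 0.04 and 0.11. FASN, the fatty acid synthase, and LPIN1, a phosphatidate phosphatase of glycerolipid synthesis, passed in siKDM4A at 0.20 and 0.15 (adjusted p = 0.024 and 0.038) and not in siLEF1, at 0.05 and 0.13 (adjusted p = 0.45 and 0.06).

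The difference between the knockdowns was tested directly, siKDM4A against siLEF1. Of the 32 genes, 14 were higher (43.8%) and 7 lower (21.9%) in siKDM4A, and 11 did not pass, against 16.8% higher and 20.1% lower over all 21493 genes tested and 27% and 28.1% among those averaging 1 FPKM or more. Past 1.5-fold, 1 gene was higher, CYP51A1, and 1 was lower, FADS2, against 5.28% and 10% of all genes tested. Among those averaging 1 FPKM or more these shares were 7.39% and 10.9%. The median log2 difference was 0.096, against -0.055 over all genes tested and -0.0064 among those averaging 1 FPKM or more. In the squalene and sterol steps 6 of 11 were higher and 1 lower, whereas in fatty acid and glycerolipid synthesis 3 of 9 were higher and 4 lower.

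INSIG1 was higher in siKDM4A than in siLEF1 by 0.39 on the log2 scale (0.28 to 0.50, adjusted p = 0.00078). SQLE was higher by 0.36 (adjusted p = 0.00019), FDPS by 0.35 (adjusted p = 0.00053), DHCR7 by 0.32 (adjusted p = 0.0012) and MSMO1 by 0.32 (adjusted p = 0.00015). ELOVL6 was higher by 0.45 (adjusted p = 0.0013). Also higher were ACAT2 (0.28), HMGCS1 (0.13), IDI1 (0.20), NSDHL (0.16), EBP (0.28), FASN (0.15) and SCD (0.18), as log2 differences. The genes lower in siKDM4A than in siLEF1 were MVK (-0.18), LSS (-0.40), SREBF1 (-0.32), ACLY (-0.12), ACACA (-0.22), FADS2 (-0.77) and ACSS2 (-0.28), as log2 differences. CYP51A1 was higher by 0.65 (0.30 to 1.0, adjusted p = 0.013), a value that was 0.55 without siKDM4A replicate 3 and 0.58 without siLEF1 replicate 3. The knockdowns could not be told apart for MVD, at 0.04 (-0.07 to 0.15), STARD4, at 0.04 (-0.05 to 0.13), and FADS1, at 0.00 (-0.08 to 0.07). For TM7SF2 the difference was 0.31 (0.04 to 0.58, adjusted p = 0.075). FDFT1 and LPIN1, raised in siKDM4A and not in siLEF1, had direct differences of 0.09 (0.01 to 0.17, adjusted p = 0.068) and 0.02 (-0.07 to 0.11), so the knockdowns are not shown to differ there.

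**Figure D3:**
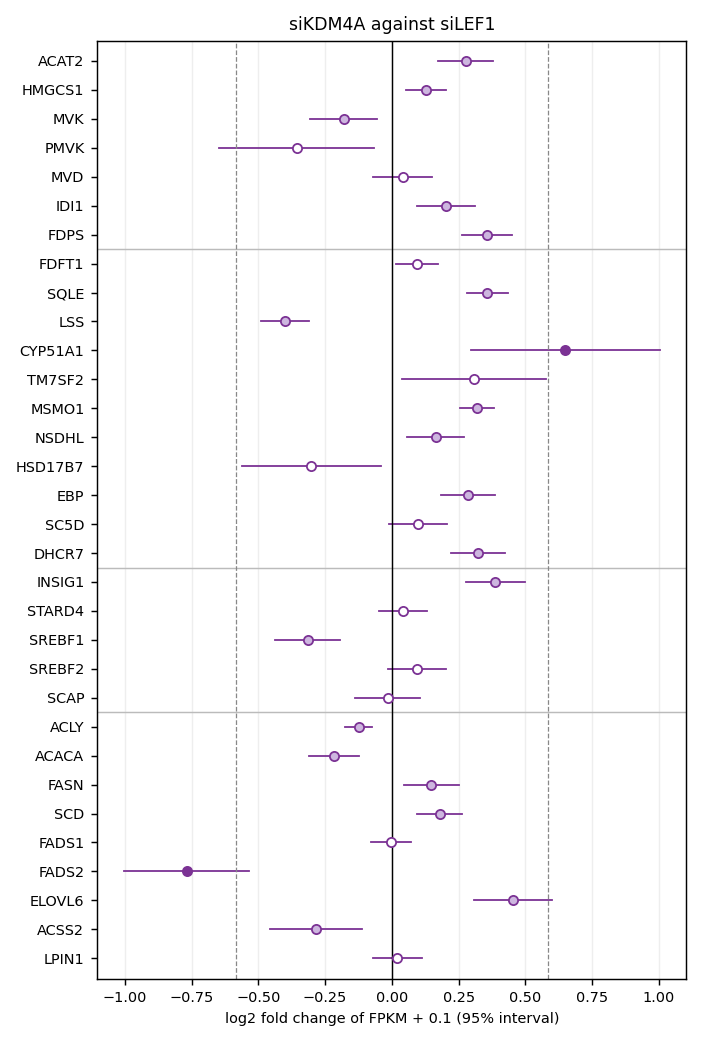
Log2 difference in FPKM + 0.1 between the 3 siKDM4A and the 3 siLEF1 libraries for the 32 genes, with 95% intervals from limma and dashed lines at 1.5-fold. Dark points passed the adjusted p and 1.5-fold, pale points the adjusted p alone and open points neither, and FADS2 at -0.77 and CYP51A1 at 0.65 are the dark points.

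Summed over the 32 genes, expression was 685 ± 9.21 FPKM in Control, 809 ± 11.5 FPKM in siLEF1 and 885 ± 18.5 FPKM in siKDM4A (mean ± SD, n = 3), or 1.18 and 1.29 times Control, and the libraries of the 3 groups did not overlap. The mevalonate steps summed to 81.6 ± 4.59, 106 ± 1.97 and 114 ± 0.968 FPKM in the same order, and the squalene and sterol steps to 229 ± 4.94, 264 ± 3.14 and 304 ± 4.85 FPKM. The genes of sterol transport and SREBP control summed to 115 ± 1.16, 142 ± 2.78 and 155 ± 8.33 FPKM, where INSIG1 alone rose by more than the sum did. Fatty acid and glycerolipid synthesis summed to 259 ± 6.22, 297 ± 7.75 and 313 ± 7.16 FPKM. A sum weights abundant genes such as SCD most, and it was given no test.

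Promoters were read from RefSeq (GRCh38.p14) for 28 of the 32 genes, as the 250 bases before each start, and searched on both strands. The motifs were CCAAT, bound by NF-Y, GGGCGG, bound by SP1, TCACNCCAC, a form of the sterol regulatory element, CACGTG, an E-box, and CTTTGAA and CTTTGAT, bound by LEF1 and TCF proteins. No motif lies within another. CCAAT was found in 20 of the 28 genes (71.4%), against 41.9% of the 8769 genes of 1 FPKM or more that have a promoter in the table and 37% of all 27305 genes there. GGGCGG was found in 27 (96.4%), against 76.2% and 46.2%. The other motifs were rare. CACGTG was found in 3 genes, SC5D, INSIG1 and SCAP (10.7%, against 11.5% and 7.73%), TCACNCCAC in SREBF2 alone (3.57%, against 1.19% and 1.09%) and CTTTGAA in ELOVL6 alone (3.57%, against 3.19% and 4.71%). CTTTGAT was found in none of the 28, against 1.79% and 2.75%. For each motif, absence says only that these letters are not in this window.

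**Figure D4:**
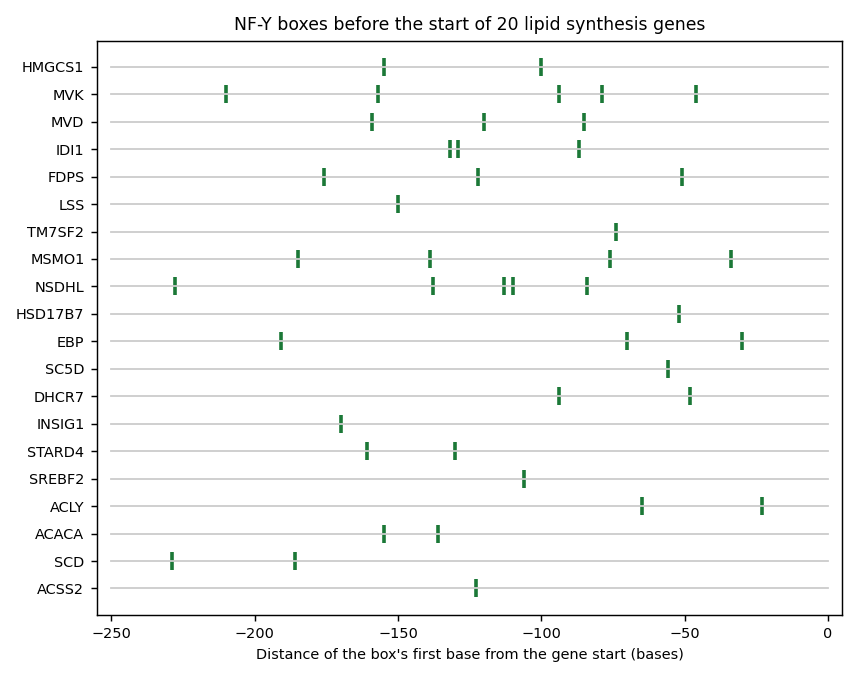
Distance in bases from the gene start (0) to the first base of each CCAAT or ATTGG box, for the 20 of 28 genes with at least 1 box in the 250 bases before a RefSeq start, taking the promoter with most boxes where a gene has several. Each green mark is 1 of 45 boxes, and MVK and NSDHL have the most, with 5 each.

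Split by call, the counts of genes with CCAAT were small and their difference was not tested. In siLEF1 the motif was present in 11 of 13 raised genes with a promoter, in both of the lowered ones and in 7 of 13 that did not pass. In siKDM4A it was present in 11 of 15 raised, 3 of 4 lowered and 6 of 9 that did not pass. A match describes the letters and is not shown to be a bound site.

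Genes around the pathway that are not among the 32 were counted by list, and those past both thresholds in a knockdown against Control are named. The counts of raised and lowered genes stand beside 15.7% and 16.9% of all genes tested in siLEF1 and 14.7% and 18.3% in siKDM4A, or 23.3% and 26.9%, and 23.2% and 27.1%, of those averaging 1 FPKM or more. No list was tested as a whole. Of 10 other genes of SREBP processing and sterol sensing, 2 were raised and 4 lowered in siLEF1 (median log2 fold change -0.12), and 2 raised and 2 lowered in siKDM4A (median -0.059). C12orf49, which is needed for SREBP processing, was at 8.70 ± 0.285 FPKM in Control and 2.65 ± 0.0965 FPKM in siLEF1 (log2 fold change -1.68, adjusted p = 6.1e-06). In siKDM4A it was at 7.64 ± 0.276 FPKM. ERLIN2 and ERLIN1, lipid-raft proteins of the endoplasmic reticulum that bind sterol-regulated proteins, were raised in siLEF1 by 1.08 and 0.90 and in siKDM4A by 0.66 and 0.78 on the log2 scale. PAQR3, a Golgi membrane protein, was lowered in siKDM4A (-1.11, adjusted p = 6.6e-05).

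Of 11 genes of the non-sterol branches, which make ubiquinone, dolichol and prenyl groups, 2 were raised and 2 lowered in siLEF1 (median -0.11) and 4 raised and 1 lowered in siKDM4A (median 0.12). PDSS2, a subunit of the enzyme that makes the ubiquinone side chain, was past 1.5-fold in siLEF1, at 0.63 (adjusted p = 0.005). Of 12 genes of cholesterol export, esterification and endosomal transport, 4 were raised and 3 lowered in siLEF1 (median 0.056) and 6 raised and 2 lowered in siKDM4A (median 0.12). ABCG1, which exports cholesterol to lipoproteins, was at 2.31 ± 0.0987 FPKM in Control and 0.730 ± 0.180 FPKM in siKDM4A (log2 fold change -1.56, adjusted p = 0.0007). TMEM97, a sterol-regulated membrane protein, was raised in siKDM4A (0.77, adjusted p = 0.00017). NR1H3, the sterol-sensing receptor LXRα, was raised in siLEF1 (0.81, adjusted p = 0.0025).

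Of 22 other genes of fatty acid elongation, desaturation and activation tested, 7 were raised and 7 lowered in siLEF1 (median 0.069) and 11 raised and 5 lowered in siKDM4A (median 0.16). SLC25A1, the carrier that brings citrate out of mitochondria for acetyl-CoA, was at 36.6 ± 1.58 FPKM in Control, 12.5 ± 1.15 FPKM in siLEF1 and 43.2 ± 3.84 FPKM in siKDM4A. It was lowered in siLEF1 (log2 fold change -1.55, adjusted p = 1.7e-05), and its direct difference was 1.78 higher in siKDM4A (adjusted p = 1.7e-05). ELOVL3, an elongase at a low level of 1.60 ± 0.197 FPKM in Control, was lowered in both, at -1.73 in siLEF1 (adjusted p = 0.0013) and -1.32 in siKDM4A (adjusted p = 0.0014). FADS3, a relative of the FADS1 and FADS2 desaturases, was at 25.1 ± 1.01 FPKM in Control and 10.4 ± 0.759 FPKM in siKDM4A (-1.26, adjusted p = 2.3e-05). ME1, the malic enzyme that supplies NADPH, was raised in both, at 1.30 in siLEF1 (adjusted p = 6.1e-06) and 1.08 in siKDM4A (adjusted p = 3.5e-05). The others past 1.5-fold were HSD17B12 (-1.01) and HACD3 (0.65), enzymes of the elongation cycle, ELOVL4 (-0.62), an elongase, and ACSL4 (0.61), an acyl-CoA synthetase, HACD3 in siKDM4A and the rest in siLEF1.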

How the data were processed

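RNA-seq was analysed in 9 CAL-27 libraries, 3 in each of 3 groups assigned from the sample labels. The values are FPKM as the authors deposited them, 1 table a library, and their processing notes name Trimmomatic, HISAT2, Cufflinks, HTSeq and hg38. The paper's methods were read for the design. The library kit was stranded, but whether counting used strand is not given in the sources used here. FPKM steps gave back whole reads for 100% of the 217477 values above 0, within 0.02 reads. Replicates differed by 2.01 to 3.53 in chi-square for each gene, so none was a copy of another.

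Each comparison was fitted in R 4.3.3 with limma 3.58.1 (lmFit and eBayes with trend, two-sided) on log2(FPKM + 0.1), which understates the change of low genes, over genes averaging 0.1 FPKM or more in the 6 libraries compared. P-values were adjusted by Benjamini-Hochberg over all genes tested, with thresholds of 0.05 and 1.5-fold. Intervals are 95%. Gene positions and overlaps come from GENCODE 29 (GRCh38), which held 33074 of the 33216 identifiers, and promoters from RefSeq (GRCh38.p14). The promoters of SQLE, FASN, ACAT2 and FDFT1 were not used here. The named genes are the 32, each with its values, and in every other list the gene of largest change among those past both thresholds in each comparison. In the lists of lipid genes and SREBP partners, the other genes past both thresholds against Control were added after their values were seen. From the marker lists KRT5, EPCAM, CDH1, COL1A1 and PTPRC were also named. KRT17, SFN, TP63 and DSP, past both thresholds in siKDM4A, were counted without their values. Members, lists and motifs were chosen with earlier results of these data known. Alternatives were pseudocounts of 1 and 0.01, other filters, eBayes without trend, 1 fit of 9 libraries, scaled libraries, a replicate block, 2-fold, and each library left out. Limma's voom, run on these reads, was added after the data had been seen.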

Additional observations from a re-analysis of the deposited data

How the results depend on the processing

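No gene of the 32 changed direction past a threshold under any alternative run. For the call past 1.5-fold, 1509 single-gene results under the alternatives kept their side of the thresholds, 23 lost the call and 4 gained it. Past 1.5-fold, a pseudocount of 1 left 1 gene raised in siLEF1 (from 2), 1 lowered in siKDM4A (from 2), and 0 raised and 0 lowered in siKDM4A against siLEF1 (from 1 each). A threshold of 2-fold left 1 raised in siLEF1, 2 raised (from 7) and 0 lowered in siKDM4A, and 0 and 0 in siKDM4A against siLEF1. In that direct comparison, 1 fit of all 9 libraries left 0 raised past 1.5-fold (from 1), and leaving out 1 library gave 0 to 1. At any fold, eBayes without trend left 9 raised (from 14) and 4 lowered (from 7) there. At any fold, leaving out 1 library gave 15 to 17 raised in siLEF1 and 16 to 18 in siKDM4A.

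Over all genes, the counts raised and lowered past 1.5-fold moved by over 1.5 times under a pseudocount of 1. They went from 1378 and 1160 to 729 and 676 in siLEF1, and from 899 and 1657 to 570 and 892 in siKDM4A. In the direct comparison they went from 1135 and 2154 to 733 and 1108. A threshold of 2-fold in place of 1.5-fold also moved them by over 1.5 times, to 620 and 450, 366 and 713, and 413 and 1080. A filter of 1 FPKM, which tests fewer genes, left 1384 lowered past 1.5-fold in the direct comparison.

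Replicate numbers did not pair the libraries, since same-numbered libraries had correlations of deviations of -0.040 to 0.043. With the replicate block, CYP51A1 in siKDM4A had an adjusted p of 0.059 (limma) and 6 genes were raised past 1.5-fold there. In siLEF1, 2 were raised and 1 lowered past 1.5-fold with the block. The cause of each lost call was not tested. Single-gene precision is limited by reads most for CYP51A1, at 42 to 198 a library, and by 3 libraries a group.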

Other observations

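Lists bordering on lipid synthesis were counted beside 23.3% raised and 26.9% lowered in siLEF1, and 23.2% and 27.1% in siKDM4A, among tested genes averaging 1 FPKM or more. Of 19 fatty acid oxidation genes, 4 were raised and 2 lowered at any fold in siLEF1, and 1 was raised and 6 lowered in siKDM4A, 4 of them past 1.5-fold. Among tested genes averaging 1 FPKM or more, 9.22% were lowered past 1.5-fold in siKDM4A. ACADM and ACADVL, dehydrogenases of medium-chain and very-long-chain acyl-CoA, CPT1A, which admits long-chain acyl groups to mitochondria, and ACADS, the short-chain dehydrogenase, had log2 fold changes of -0.73, -0.70, -0.59 and -0.59 in siKDM4A. Directly compared, 9 of the 19 were lower and 1 higher in siKDM4A than in siLEF1, against 28.1% and 27% of such genes, and ACADVL was at 25.3 ± 2.09 FPKM in siKDM4A against 50.5 ± 0.927 FPKM in siLEF1 (log2 difference -1.0, adjusted p = 3.3e-05).

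Of 15 triglyceride, phospholipid and lipid droplet genes tested, 5 were raised and 7 lowered in siLEF1, and 3 raised and 5 lowered in siKDM4A. PCYT1A, the rate-limiting enzyme of phosphatidylcholine synthesis, was at 12.4 ± 0.280 FPKM in Control and 6.55 ± 0.150 FPKM in siLEF1 (log2 fold change -0.91, adjusted p = 1.3e-05). GPAM, which starts glycerolipid synthesis, was lowered in siLEF1 (-0.66, adjusted p = 0.0017). DGAT2, which closes triglyceride synthesis, was lowered in siKDM4A (-0.81, adjusted p = 0.024). Of 7 genes of promoter partners of SREBP, 1 was raised and 4 lowered in each knockdown. NFYC, a subunit of NF-Y, was at 8.50 ± 0.327 FPKM in Control and 4.88 ± 0.158 FPKM in siKDM4A (-0.79, adjusted p = 7.8e-05). Of the fibroblast collagen genes among the markers of other cells, COL1A1 was at 2.39 ± 0.211 FPKM in Control and 2.62 ± 0.214 FPKM in siLEF1 (0.13, adjusted p = 0.40). COL1A2 was at 0.170 ± 0.0330 FPKM in Control and 0.744 ± 0.0938 FPKM in siLEF1 (1.64, adjusted p = 0.0024).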
